A study of Mus musculus with 11 samples.

Results

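The replication-dependent core histone genes were taken as the protein-coding genes whose mouse symbols begin with Hist1 to Hist4 followed by H2A, H2B, H3 or H4, leaving out Hist2h2be. This rule found 60 members among the 54838 genes in the count data: 18 H2A, 17 H2B, 12 H3 and 13 H4 genes. Another 3 genes with such symbols are pseudogenes and were left out. RNA was sequenced from E14 mouse embryonic stem cells (ESCs) 36 h after transfection with a control scramble siRNA (3 libraries), CMTR1 siRNA 1 (4 libraries) or CMTR1 siRNA 2 (4 libraries), to ask how lowering the cap methyltransferase CMTR1 changes RNA levels. All groups were the same cell line, grown in LIF on gelatin, and the control is another transfected siRNA, so no group was left untransfected. RNA was total RNA depleted of rRNA, which matters here because most histone mRNAs carry no poly(A) tail. The labels do not say that libraries of a group came from separate cultures, and the methods state 3 biological replicates while each CMTR1 siRNA has 4 libraries, so p-values measure the spread between these libraries.

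Histones H2A, H2B, H3 and H4 form the protein core of the nucleosome, and cells need new copies of them in S phase when DNA is copied. Their genes lie in clusters, many have no introns, and their mRNAs end in a conserved stem-loop in place of a poly(A) tail. The stem-loop is bound by SLBP, the U7 snRNP guides cleavage just after it, and NPAT activates transcription of the clusters. CMTR1 methylates the ribose of the first transcribed nucleotide of capped RNA. In bulk RNA, fewer cells in S phase and less histone RNA per cell cannot be told apart.

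The members lie in 4 named sets in GRCm38 (GENCODE M21). Hist1 holds 48 members on chromosome 13, Hist2 holds 9 on chromosome 3, Hist3 holds 2 on chromosome 11 and Hist4 holds 1 on chromosome 6. Splitting at gaps over 100 kb divides Hist1 into 4 runs: 17 members at 21715763 to 21837530, 5 at 22035164 to 22043676, 24 at 23531050 to 23762386, and the pair Hist1h2ba and Hist1h2aa at 23933773 to 23934851. This last pair encodes the forms known as TH2B and TH2A, best known from testis and oocyte, and joins the members by symbol alone.

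The stem-loop was looked for in the annotated transcripts as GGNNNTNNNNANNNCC on the transcript strand, with 6 complementary base pairs in the stem, within 100 bases after the stop codon. Of the members, 42 held it, starting 22 to 59 bases after the stop codon (median 32.5). A further 12 have a transcript model that ends at the stop codon, so the search could not be made, and 6 have bases after the stop codon but no match. Among those, Hist1h2af (1 base) and Hist1h2ah (2 bases) have too few bases to hold the motif, and Hist2h3b has 37. Hist1h2bc, Hist1h2bq and Hist1h2br have 742, 1608 and 1803 bases. Among 20141 other genes with a full window, 18 (0.089%) held it, including H2afx and Hist1h1c. The sequences below are shown because the loop sets the members apart from other mRNAs and because its stem in H4 members differs from that in the other classes. Each gives 26 bases 5′ to 3′, with the stem-loop in capitals, for members named in the comparisons.

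Hist2h4 (H4): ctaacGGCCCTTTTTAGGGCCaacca

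Hist1h4a (H4): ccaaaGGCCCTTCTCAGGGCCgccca

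Hist1h4i (H4): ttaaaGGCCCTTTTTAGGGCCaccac

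Hist1h3f and Hist1h3e (H3): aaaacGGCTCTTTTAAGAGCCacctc

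Hist1h3g (H3): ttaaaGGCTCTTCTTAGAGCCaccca

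Hist1h2bm (H2B): acaaaGGCTCTTTTCAGAGCCactaa

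Hist1h2bp (H2B) and Hist1h2ab (H2A): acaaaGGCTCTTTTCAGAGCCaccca

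All 30 loops of H2A, H2B and H3 members began GGCTCT, and the 12 H4 loops began GGCCCT (10 members) or GGTCCT (2 members). The form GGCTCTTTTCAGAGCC was the most frequent, in 23 members, and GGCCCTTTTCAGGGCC was found in 7 H4 members. In the models of 19 members the annotated transcript runs over 100 bases past the loop, as in Hist2h4 (1257 bases) and Hist1h2be (1861 bases), so some annotated exons lie beyond the loop. Hist1h2ba, Hist1h2aa, Hist1h2ai, Hist2h2bb and Hist1h3i have models that end at the stop codon, and that of Hist1h2af goes 1 base past it, so none of these 6 models reaches a loop.

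Promoters differed by class as well. RefSeq windows (GRCm38.p6) from 250 bases before to 50 after the start site were matched for 55 members and searched on both strands. TATAAA was in 31 of them (56.36%), against 15.67% of all 27025 genes, where a gene counts if any of its windows holds the motif. CCAAT was found for all 17 H2A, 16 H2B and 10 H3 members matched but for 3 of 12 H4 members, against 41.06% of all genes. The octamer ATTTGCAT was found for 7 H2A and 6 H2B members, for no H3 or H4 member, and for 1.969% of all genes. There were 11 pairs of H2A and H2B genes transcribed away from each other with 175 to 305 bases between them, so that their windows overlap and the motif counts of H2A and H2B are not independent.

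Counted reads per library ranged from 6738478 to 8382318, and members took 29176 to 37101 of them. Cmtr1, the siRNA target, was at 21.3, 21.7 and 17.9 CPM (counts scaled to the total counted reads of the library) in control, at 21.1, 21.3, 16.2 and 18.04 in the libraries labelled siRNA 1, and at 15.6, 16.8, 16.4 and 19.5 in those labelled siRNA 2. The groups overlapped, and the log2 fold change against control was -0.09 for siRNA 1 (SE 0.11, edgeR FDR 0.743) and -0.25 for siRNA 2 (SE 0.11, edgeR FDR 0.144). Of the 9720 exon bases of Cmtr1, 36.3% also lie in exons of another gene on the same strand, most of them in Gm28043, where reads cannot be given to 1 gene. Cmtr1 RNA therefore did not pass as lower in either labelled group, although an SE of 0.11 is small beside a large fall. The part of the exon overlap in this was not tested. Each direction given below for siRNA 1 or siRNA 2 rests on the labels. The ESC label was checked with 9 marker genes, which were at 1973 to 2082 CPM in sum in control libraries, and summed levels of the neural, mesoderm, endoderm and fibroblast markers did not exceed 106 CPM in any library.

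In control ESCs the H4 genes took the largest share of the members' reads, 37.9%, followed by H2B with 25.1%, H3 with 24.3% and H2A with 12.6%. Of the 60 members, 51 passed the filter of more than 1 CPM in at least 4 libraries: 13 H2A, 15 H2B, 11 H3 and 12 H4 genes. A member that is raised in 4 libraries alone can pass this filter. Median level per kb of exon was 73.0 CPM for H2A, 101 for H2B, 138 for H3 and 217 for H4. Within each class the levels spread widely. In H2A they ran from 14.3 CPM per kb for Hist1h2ac to 351 for Hist1h2ak, and in H2B from 23.2 for Hist1h2be to 291 for Hist1h2bl. In H3 they ran from 0.996 for Hist2h3c2 to 328 for Hist1h3e, which alone held 25.2% of the H3 reads. In H4 they ran from 50.6 for Hist4h4 to 490 for Hist1h4k. The SD over the 3 control libraries was 0.973 CPM per kb for Hist1h2ak and 16.7 for Hist1h4k. Levels per kb depend on the annotated length, which goes from 312 bases in Hist1h4k to 4446 in Hist1h2be. The members at the low end include the longest models. The classes also differ in how many of a gene's stretches of read length occur in another gene. The median was 71.5% for H2A, 59.0% for H3, 47.4% for H2B and 24.6% for H4. Reads aligned to several places were not counted, so the order of the classes is that of counted reads. The part of shared sequence in this order was not tested.

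**Figure D1:**
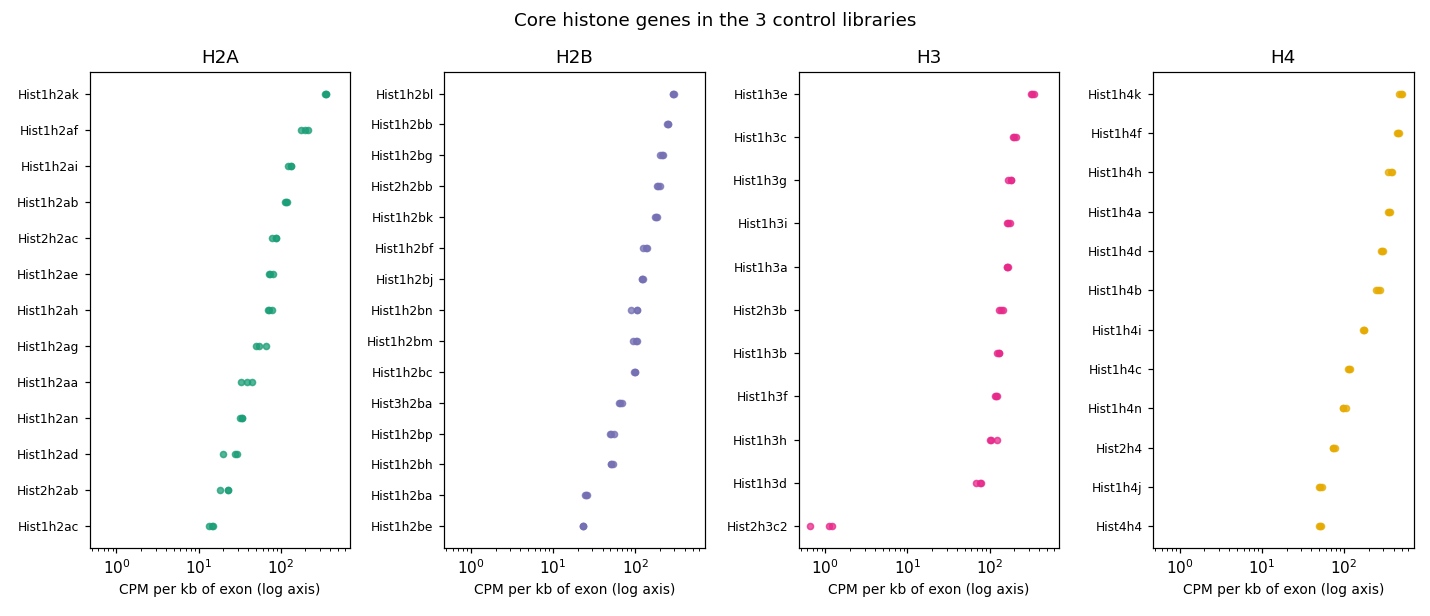
Level of the 51 members that passed the filter in control ESCs, as CPM per kb of exon on a log axis, in 4 panels by class, with 1 point for each of the 3 control libraries. H4 genes reach the highest level, 490 CPM per kb for Hist1h4k, and Hist2h3c2 lies lowest at 0.996.

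The remaining 9 members were hardly counted. Hist2h2aa1, Hist2h3c1 and Hist1h2br had no read in any library, and Hist2h2aa2, Hist1h2bq, Hist1h2ao, Hist1h2ap and Hist1h4m were below 1 CPM in each. For these 8 members, 87.6% to 100% of the 75-nt words, the length of each read of a pair, also occur in another gene. All words of Hist2h2aa2, for example, occur in Hist2h2aa1. Reads aligned to more than 1 place, 5.79% to 6.32% of reads in the 10 libraries whose files list them, were not counted, and the part of this in the low counts of these members was not tested. On the same strand, Gm20634 overlaps Hist2h3c1 over 1825 bases and Hist2h2aa1 over 529, and the part of this was not tested either. Hist2h2bb and Hist2h3b share 100% of their words with Gm20628, which overlaps both on the opposite strand, and were counted at 72.5 and 67.3 CPM in control. Hist3h2a, at up to 1.48 CPM, overlaps Trim17 on the same strand over 708 bases.

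The members' summed level was close to control with siRNA 1 and lower with siRNA 2. It was 4374, 4576 and 4460 CPM in control, 4557, 4571, 4463 and 4458 with siRNA 1, and 4250, 4409, 3933 and 3988 for siRNA 2. Among the siRNA 2 libraries, replicate 2 lay within the control range, replicate 1 just below it, and replicates 3 and 4 lowest. The siRNA 2 mean was 0.927 times control, and the siRNA 1 mean 1.01 times control.

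In each class siRNA 2 replicate 2 was the highest siRNA 2 library and replicate 3 the lowest. H4 was at 1695 ± 27.8 CPM in control (SD, n = 3), 1684 ± 26.3 with siRNA 1 (n = 4) and 1557 ± 97.6 with siRNA 2 (n = 4), and here the highest siRNA 2 library (1659) was below the lowest control library (1669). The siRNA 1 libraries crossed this gap, at 1658 to 1717 CPM. H3 was at 1087 ± 28.3 CPM in control, 1123 ± 16.7 with siRNA 1 and 1017 ± 53.2 with siRNA 2. H2B was at 1124 ± 24.0, 1139 ± 20.4 and 1048 ± 44.3 CPM, and H2A at 565 ± 23.3, 565 ± 9.16 and 522 ± 33.9 CPM, in the same order. In H2A, H2B and H3 the siRNA 2 and control libraries overlapped. The ratio of siRNA 2 to control was 0.925 for H2A, 0.933 for H2B, 0.936 for H3 and 0.919 for H4, so the classes differed from each other by less than the siRNA 2 libraries did.

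**Figure D2:**
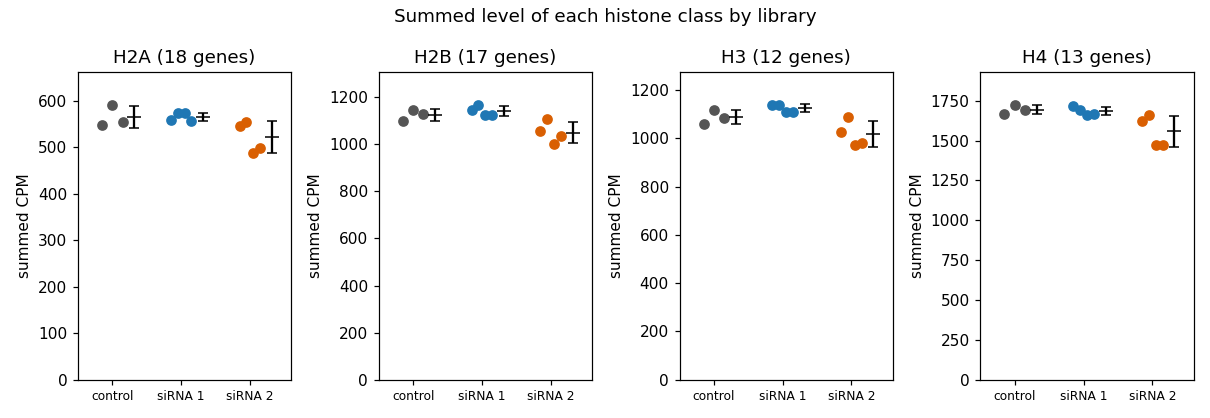
Summed CPM of all genes of each class, 1 point per library, for control (grey), siRNA 1 (blue) and siRNA 2 (orange), with the mean and SD in black beside the points. H4 in the siRNA 2 libraries, 1474 to 1659 CPM, lies below the 3 control libraries, and the other classes overlap. The lowest siRNA 1 library for H4, at 1658 CPM, also lies below control.

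With siRNA 1, no member passed an FDR of 0.05 against control (0 of 51, edgeR quasi-likelihood test with Benjamini-Hochberg adjustment over 16073 genes), where 4.67% of all genes tested did, 1.97% lower and 2.71% higher. At an unadjusted p under 0.05 there were 4 members, Hist2h4, Hist1h2bp, Hist1h3f and Hist1h2ba. DESeq2 and edgeR's exactTest also called 0. With TMM factors no member passed either, and the calls over all genes moved from 316 lower and 435 higher to 400 lower and 346 higher. The median log2 fold change over the 51 members was 0.02, and that of all genes was 0.02, with 37.3% of members and 43.2% of all genes below 0. By class, medians were 0.03 for H2A, 0.03 for H2B, 0.03 for H3 and 0.00 for H4. The lowest value was -0.18 in Hist2h2ab (SE 0.15, edgeR FDR 0.592) and the highest 0.29 in Hist1h2ba (SE 0.13, edgeR FDR 0.22). For Hist2h4, the 95% interval of the log2 difference ran from -0.23 to -0.01, and for Hist1h3e, the most abundant H3 gene, from 0.00 to 0.18.

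With siRNA 2, 8 members passed against control, 6 lower and 2 higher, which is 15.7% of the 51 members, against 9.72% of all genes. The share lower was 11.8% of members against 3.55% of all genes, and the share higher 3.92% against 6.17%. The median log2 fold change of the members was -0.11, while that of all genes was 0.03, and 46 of 51 members (90.2%) were below 0, against 42.9% of all genes. With TMM factors in place of total counts, 12 members passed, 10 lower and 2 higher, and over all genes the calls moved from 571 lower and 991 higher to 734 lower and 728 higher. The class medians were -0.08 for H2A, -0.11 for H2B, -0.10 for H3 and -0.12 for H4, and all 12 H4 members lay below 0. The libraries of siRNA 2 differed: the median log2 difference of members from the control mean (CPM plus 0.5) was -0.07, -0.02, -0.16 and -0.15, against 0.02, 0.04, 0.01 and -0.0009 with siRNA 1 and -0.03, 0.04 and -0.01 in control. The count of 8 fell to 3 without control replicate 2 (1 lower) or control replicate 3 (2 lower) and rose to 13 without siRNA 2 replicate 2. Over all 16073 genes the calls were then 914 (360 lower), 807 (292 lower) and 1274 (478 lower), in that order. With all libraries they were 1562 (571 lower).

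**Figure D3:**
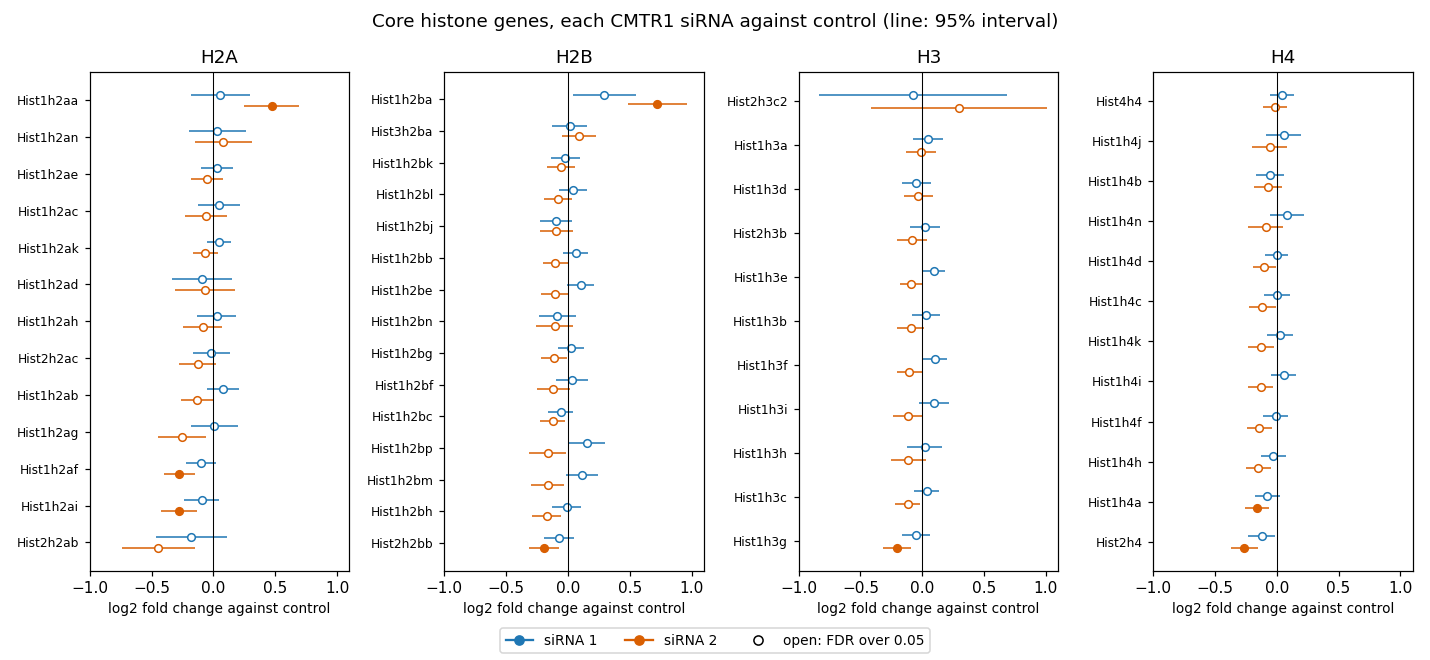
Log2 fold change against control of the 51 members tested, by class, for siRNA 1 (blue) and siRNA 2 (orange), with lines for the 95% interval and filled points where the FDR was at most 0.05. No siRNA 1 point is filled, the 8 filled siRNA 2 points include 6 below 0, and Hist1h2ba (0.72) and Hist1h2aa (0.47) lie highest.

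Of the H4 genes, Hist2h4 and Hist1h4a passed with siRNA 2, both lower. Overlap of libraries is given here and below as description, since the called genes were picked by a test on the same libraries. Hist1h4i and Hist1h4c, not called against control, did not overlap control with siRNA 2 either. Hist2h4 (ENSMUSG00000091405, chromosome 3, 96261682 to 96263311, minus strand) was at 121, 120 and 127 CPM in control, 113, 111, 112 and 115 with siRNA 1, and 104, 113, 95.04 and 96.2 for siRNA 2. Neither siRNA group overlapped control, and the log2 fold change was -0.26 for siRNA 2 (SE 0.06, edgeR FDR 0.00143) and -0.12 for siRNA 1 (SE 0.06, edgeR FDR 0.245). None of the 75-nt words of Hist2h4 occur in another gene, so its reads can be placed, and its call held without any 1 library (FDR 0.000178 to 0.0212 over all alternatives). Hist1h4a was at 186, 193 and 190 CPM in control, 188, 176, 175 and 182 with siRNA 1, and 180, 181, 156 and 162 for siRNA 2. Its siRNA 2 and control libraries did not overlap, with a log2 fold change of -0.16 (SE 0.05, edgeR FDR 0.037), and the call was lost without any 1 of the control libraries or without siRNA 2 replicate 3 or 4.

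Of the H2A genes, Hist1h2ai and Hist1h2af were lower with siRNA 2. Hist1h2ai was at 48.4, 52.8 and 51.8 CPM in control, 43.6, 52.5, 46.2 and 48.4 with siRNA 1, and 46.0, 44.1, 39.8 and 38.5 for siRNA 2, and its log2 fold change with siRNA 2 was -0.28 (SE 0.07, edgeR FDR 0.00987). Hist1h2af was at 69.7, 85.1 and 78.9 CPM in control, 72.6, 70.8, 75.1 and 72.4 with siRNA 1, and 65.2, 68.5, 60.7 and 62.9 for siRNA 2, a log2 fold change of -0.28 (SE 0.06, edgeR FDR 0.00301). In both genes the siRNA 2 libraries lay below all control libraries, and the siRNA 1 libraries overlapped control. For these 2 genes 89.3% and 86.8% of the words occur in another gene, with Hist1h2ad the closest. A word takes no account of the mate of a paired read, so how far sharing affects their counts is uncertain and was not tested. Without control replicate 2 both lost the call, Hist1h2ai also without control replicate 3. Hist2h2ab had the lowest log2 fold change of all members, -0.45 (SE 0.15), but its FDR was 0.0516 and its libraries overlapped, at 8.13 to 10.2 CPM in control and 5.85 to 8.15 with siRNA 2.

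Of the H2B and H3 genes, 1 each was lower against control. Hist2h2bb (H2B) was at 70.3, 71.5 and 75.5 CPM in control, 73.5, 69.4, 68.0 and 64.8 with siRNA 1, and 67.3, 65.5, 60.0 and 60.1 for siRNA 2, a log2 fold change of -0.20 (SE 0.06, edgeR FDR 0.0349). Gm20628 on the opposite strand holds all 75-nt words of Hist2h2bb, and Gm42743 on the same strand overlaps it over 226 bases. Gm20628 covers all 381 exon bases of Hist2h2bb, which was still given 445 to 580 reads per library. The sources used here do not state the strand setting of the counting. How reads were divided between Hist2h2bb and Gm20628 was not tested. Hist1h3g (H3) was at 88.7, 95.6 and 95.8 CPM in control, 90.1, 94.6, 82.8 and 92.9 with siRNA 1, and 81.1, 85.3, 79.4 and 78.8 for siRNA 2, a log2 fold change of -0.20 (SE 0.06, edgeR FDR 0.0192). For both genes the siRNA 2 libraries did not overlap control, and both lost the call without control replicate 2 or control replicate 3. Hist2h2bb also lost it without siRNA 2 replicate 3 or 4, and with no filter on low counts.

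The 2 members that rose with siRNA 2 were the pair at the end of Hist1. Hist1h2ba (TH2B, ENSMUSG00000050799, chromosome 13, 23933773 to 23934156, minus strand) was at 10.0, 9.50 and 9.56 CPM in control, 10.2, 13.3, 12.7 and 11.1 with siRNA 1, and 15.3, 17.9, 16.3 and 14.4 for siRNA 2. The 3 groups did not overlap, and the log2 fold change with siRNA 2 was 0.72 (SE 0.12, edgeR FDR 5.93e-05), a fold of 1.65, while with siRNA 1 it was 0.29 (FDR 0.22). Hist1h2aa (TH2A, chromosome 13, 23934462 to 23934851, plus strand) was at 15.2, 17.6 and 12.9 CPM in control, 17.2, 17.7, 15.2 and 13.6 with siRNA 1, and 23.4, 23.6, 18.1 and 19.8 for siRNA 2, a log2 fold change of 0.47 (SE 0.11, edgeR FDR 0.00487) with siRNA 2 and 0.06 (FDR 0.873) with siRNA 1. All siRNA 2 libraries were above all others for both genes. These counts were small, 69 to 150 reads per library for Hist1h2ba and 96 to 198 for Hist1h2aa. The pair took 0.558% of the members' control reads and is 305 bases apart. Against control, Hist1h2ba kept its call in each alternative and without each library, whereas Hist1h2aa lost it without control replicate 3 (FDR 0.0759).

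**Figure D4:**
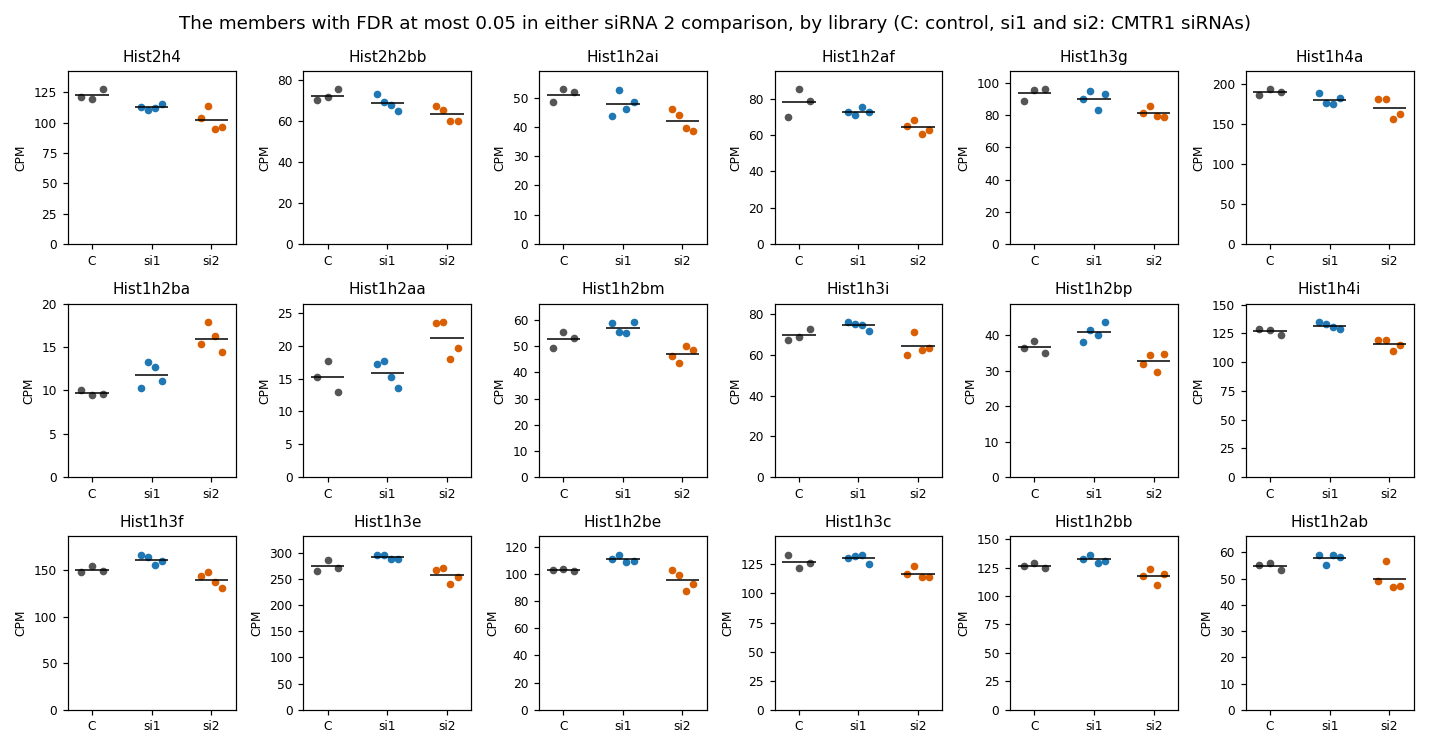
CPM of the 18 members that passed an FDR of 0.05 for siRNA 2 against control or against siRNA 1, 1 point per library and a black line at each group mean, with axes from 0. The first 8 panels are the members called against control, among them Hist1h2ba and Hist1h2aa, which are highest in all 4 siRNA 2 libraries.

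The 2 CMTR1 siRNAs were also compared directly, where the control libraries enter only the estimate of the spread. The test called 12 members, 10 lower and 2 higher with siRNA 2, which is 23.5% of the 51, against 7.44% of all genes tested. The share lower was 19.6% of members against 2.96% of all genes, and the share higher 3.92% against 4.49%. The median log2 fold change was -0.12 for members and 0.00 for all genes, and 43 of 51 members were below 0. By class, 1 H2A, 4 H2B, 4 H3 and 1 H4 members were lower, and Hist1h2aa and Hist1h2ba were higher. DESeq2 called 10 members, 8 of them lower, and 740 of all genes, 321 of them lower. Leaving out each library in turn gave 8 to 17 calls among members and 724 to 1374 over all genes. Without siRNA 2 replicate 2 all 17 were lower, and the FDR of the pair was then 0.0552 and 0.0522.

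The lower H2B genes were Hist1h2bm, Hist1h2bp, Hist1h2be and Hist1h2bb. Hist1h2bp was at 38.0, 41.5, 40.1 and 43.7 CPM with siRNA 1 and 31.96, 34.4, 29.7 and 34.8 with siRNA 2, and control, at 36.3, 38.5 and 35.1, overlapped siRNA 1. Its log2 difference was the lowest of all members, -0.32 (SE 0.07, edgeR FDR 0.00262). Hist1h2bm was at 59.1, 55.5, 54.9 and 59.2 CPM with siRNA 1 and 46.5, 43.4, 50.02 and 48.5 with siRNA 2, against 49.5, 55.5 and 53.0 in control, a log2 difference of -0.28 (SE 0.06, edgeR FDR 0.00278). Hist1h2be (log2 difference -0.21, FDR 0.00672) was at 109 to 114 CPM with siRNA 1 and 87.8 to 103 with siRNA 2, and Hist1h2bb (-0.17, FDR 0.0245) was at 129 to 136 and 110 to 124 CPM. In these 4 genes the 2 siRNA groups did not overlap, which adds no separate evidence for genes picked by a test on the same libraries. Some members that were not called, such as Hist1h4k and Hist1h3b, did not overlap either. Hist1h2be overlaps Gm11398 and the linker histone gene Hist1h1e on the same strand over 496 bases.

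The lower H3 genes were Hist1h3f, Hist1h3e, Hist1h3i and Hist1h3c, and their 2 siRNA groups did not overlap either. Hist1h3f was at 166, 164, 155 and 160 CPM with siRNA 1 and 143, 148, 137 and 131 with siRNA 2, and control was at 148, 154 and 149, a log2 difference of -0.21 (SE 0.05, edgeR FDR 0.00318). Hist1h3e was at 296, 295, 288 and 289 CPM with siRNA 1 and 266, 271, 240 and 254 with siRNA 2, against 266, 286 and 271 in control, a log2 difference of -0.18 (SE 0.04, edgeR FDR 0.00564). Hist1h3i differed by -0.21 (FDR 0.0174) and Hist1h3c by -0.15 (FDR 0.0407). The H4 gene Hist1h4i was at 135, 133, 130 and 128 CPM with siRNA 1 and 119, 119, 110 and 115 with siRNA 2, a log2 difference of -0.18 (SE 0.05, edgeR FDR 0.0101). The H2A gene Hist1h2ab differed by -0.21 (FDR 0.031), although siRNA 2 replicate 2 (56.7 CPM) lay inside the siRNA 1 range of 55.3 to 59.0.

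Against control, none of these 10 lower genes passed with siRNA 1 or siRNA 2, and their values stand side by side, with the control libraries shared. In Hist1h2bp they were 0.16 with siRNA 1 and -0.16 with siRNA 2, in Hist1h2bm 0.12 and -0.16, in Hist1h3f 0.10 and -0.11, in Hist1h3e 0.09 and -0.09, and in Hist1h4i 0.06 and -0.13. The calls for Hist1h2bm, Hist1h2bp, Hist1h2be, Hist1h3e, Hist1h3f and Hist1h4i held in each alternative and without each library. The calls for Hist1h3c, Hist1h2bb, Hist1h3i and Hist1h2ab were lost without siRNA 1 replicate 1 or without siRNA 2 replicate 1, among other single libraries, and DESeq2 did not call Hist1h3c or Hist1h2ab.

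By cluster, the members called lower with siRNA 2 against control lay in 2 of the Hist1 runs and in Hist2, and both members called higher lay in the last Hist1 run. In the run of 24 members, all 24 tested lay below 0 against control, 3 passed as lower and the median was -0.11, against 3.55% of all genes called lower and 42.9% below 0. In the run of 17 members, 12 were tested, 11 lay below 0, 1 passed as lower and the median was -0.11. In the run of 5 members, all lay below 0, none passed (2 had a raw p under 0.05) and the median was -0.09. In Hist2, 6 of 9 members were tested, 2 passed as lower and the median was -0.16, but against siRNA 1 none of the 6 passed (2 had a raw p under 0.05). Hist4h4 (log2 fold change -0.02, FDR 0.898) and Hist3h2ba (0.09, FDR 0.474), the only tested members of their sets, did not pass. The pair of TH2A and TH2B genes, the only run with both members higher, lies on the same chromosome as the 3 runs whose medians were below 0.

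**Figure D5:**
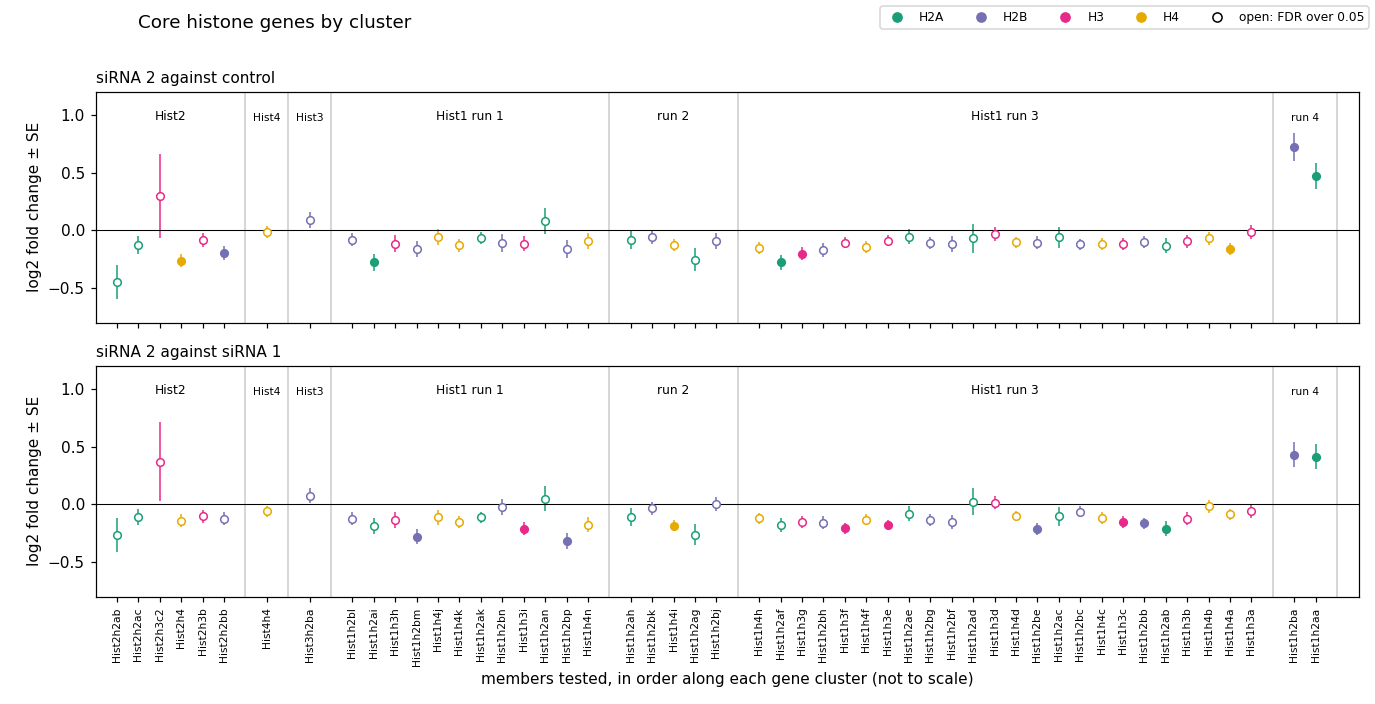
Log2 fold change ± SE of the 51 members tested, in their order along each gene cluster (not to scale), for siRNA 2 against control (top) and against siRNA 1 (bottom), coloured by class, with filled points at an FDR of at most 0.05. Most points lie between 0 and -0.3 in every cluster of 5 or more tested members, and Hist1h2ba and Hist1h2aa at the right lie above 0.4 in both panels.

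Values are given for 2 of the pairs that share a divergent promoter, chosen after their values were seen. In 9 of the 11 pairs of H2A and H2B genes both members were tested. In the pair of Hist1h2bl and Hist1h2ai, 278 bases apart, the log2 fold change with siRNA 2 was -0.08 (FDR 0.415) and -0.28 (FDR 0.00987). In the pair of Hist1h2an and Hist1h2bp, 242 bases apart, it was 0.08 (FDR 0.735) and -0.16 (FDR 0.191). The differences between pair members were not tested. Over the 18 tested genes of such pairs the median was -0.08, and it was -0.20 over 4 H2A genes and -0.14 over 6 H2B genes outside them. The 18 genes include Hist1h2ba (0.72) and Hist1h2aa (0.47). The 4 H2A genes include the low-count Hist2h2ab (-0.45, SE 0.15). The difference between these medians was not tested.

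The change with siRNA 2 was also read in members that share few words with other genes. In the 14 members with under 25% of their words in other genes, a limit chosen after seeing the data, the median log2 fold change was -0.10 against control and -0.12 against siRNA 1, with 12 and 11 of 14 below 0. Their summed level was 1461 ± 23.5 CPM in control, 1472 ± 19.5 with siRNA 1 and 1363 ± 78.5 with siRNA 2. In the 10 tested members with at least 75% shared words the medians were -0.11 and -0.16. The 3 members under 10%, all H4, had -0.26 (Hist2h4), -0.10 (Hist1h4d, FDR 0.184) and -0.02 (Hist4h4) against control. Medians also differed little with the annotated transcript: against control, -0.10 in the 17 tested members with a model over 100 bases past the loop, -0.12 in the 18 that end within 100 bases of it and -0.11 in the 12 that end at the stop codon.

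Of 30 genes that make and degrade histone mRNA, 29 were tested, with medians of -0.02 with siRNA 1, -0.00 with siRNA 2 and 0.02 for siRNA 2 against siRNA 1. With siRNA 1 none passed (3 had a raw p under 0.05), against 4.67% of all genes. With siRNA 2, 1 was lower and 1 higher, against 9.72% of all genes, and 1 was lower and 3 higher for siRNA 2 against siRNA 1, against 7.44%. Slbp, whose protein binds the stem-loop, was at 93.6 ± 4.68 CPM in control (SD, n = 3), 90.7 ± 4.16 with siRNA 1 and 91.5 ± 5.11 with siRNA 2 (n = 4 each), and its log2 fold change with siRNA 2 was -0.03 (SE 0.06, edgeR FDR 0.789). Npat, the activator of the clusters, was at 96.6 ± 4.22, 96.8 ± 3.56 and 107 ± 3.63 CPM, and its log2 fold change with siRNA 2 was 0.14 (SE 0.05, edgeR FDR 0.0859). With siRNA 2, Sympk, a scaffold of the cleavage complex, fell (-0.18, FDR 0.013) and Tut4, a uridylyltransferase that acts on RNA 3′ ends, rose (0.16, FDR 0.0383, but 0.0513 with siRNA 1), a call lost with TMM factors, with DESeq2, with no filter beyond 1 read, and without any 1 control library or siRNA 2 replicate 1, 2 or 4. Against siRNA 1, Sympk was lower (-0.17, FDR 0.00985), while Eri1, an exonuclease that trims the histone 3′ end (0.23, FDR 0.00672), Cpsf2 (0.16, FDR 0.0376) and Cdk2 (0.17, FDR 0.0449) were higher. Sympk lost its call against control without control replicate 3 (FDR 0.141). Against siRNA 1, Sympk (FDR 0.0546) and Eri1 (FDR 0.0591) lost theirs without siRNA 1 replicate 2. The call for Cpsf2 was lost with DESeq2 and without siRNA 1 replicate 1, 2 or 4 or siRNA 2 replicate 1, 2 or 4. The call for Cdk2 was lost with DESeq2, with no filter beyond 1 read, in the fit of the 2 groups alone, and without control replicate 2, siRNA 1 replicate 1, 3 or 4 or siRNA 2 replicate 1, 2 or 3.

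Histone chaperones and cell cycle genes are given beside the members because histone RNA follows S phase. Of 21 chaperone genes, 1 was lower and 1 higher with siRNA 1, against 4.67% of all genes called, and 2 were lower and 1 higher with siRNA 2, against 9.72%, with medians of -0.01 and -0.03. Nap1l1, an H2A and H2B chaperone, had a log2 fold change of -0.18 (FDR 0.0184) and -0.25 (FDR 0.000357), and Rbbp7, a subunit of chromatin assembly complexes, of 0.42 (FDR 5.46e-07) and 0.49 (FDR 6.85e-09). Against siRNA 1, Asf1a was higher with siRNA 2 (0.27, FDR 0.00949). Of 30 S phase genes, none passed with siRNA 1 (4 had a raw p under 0.05), and with siRNA 2 the licensing factor Cdt1 (-0.18, FDR 0.0143) and E2f1 (-0.28, FDR 0.0135) fell, against 3.55% of all genes called lower, with a median of -0.05. Their summed level was 5711 to 5854 CPM in control, 5570 to 5787 with siRNA 1 and 5435 to 5800 with siRNA 2. Of 30 G2 and M phase genes, none passed with siRNA 1 (2 had a raw p under 0.05) and 3 were higher with siRNA 2, against 6.17% of all genes called higher, with Hmmr at 0.23 (FDR 0.00204), and a median of 0.03. The part of cell cycle changes in the histone result was not tested.

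Markers of the cell state also moved. Of 9 ESC markers, 6 were lower with siRNA 1 (median -0.25), against 1.97% of all genes called lower. With siRNA 2, 4 were lower (median -0.13), against 3.55%. Of the 51 histone members tested, 0 and 6 were lower, in that order. The ESC markers summed to 1973 to 2082 CPM in control, 1687 to 1862 with siRNA 1 and 1771 to 1848 with siRNA 2. Col1a1, a fibroblast marker, rose with siRNA 2 (0.75, FDR 6.42e-05), and the 5 fibroblast markers summed to 22.9 to 29.2 CPM in control, 25.8 to 30.0 with siRNA 1 and 33.1 to 38.9 with siRNA 2. Of the 4 neural, 4 mesoderm and 4 endoderm markers, 3, 2 and 3 were tested. None passed against control with either siRNA, against 4.67% of all genes called with siRNA 1 and 9.72% with siRNA 2. With siRNA 1, 2 neural markers had a raw p under 0.05 (neural median 0.25). With siRNA 2, 1 neural and 1 mesoderm marker did. Pax6 was lower with siRNA 2 than with siRNA 1 (-0.68, FDR 0.000312). None of these markers was at 0 in every library. The part of these cells in the histone values was not tested.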

How the data were processed

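The authors deposited counts, whole numbers of reads per Ensembl gene and library. Per their methods, the libraries were directional and depleted of rRNA, Cutadapt removed adaptors, STAR mapped the reads to GRCm38, Picard removed duplicates and featureCounts is named for the counts. The tool versions and the strand setting are not given in the sources used here. Summary lines that close 10 files, set aside here, have the HTSeq-count layout, so which counter made the values, and how it treated overlapping genes, is not settled here. Symbols, exons and transcripts came from GENCODE M21 (54723 of 54838 gene IDs matched).

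The members and gene lists were chosen with earlier results of these data known. Genes with more than 1 CPM in at least 4 libraries (16073) entered a quasi-likelihood test in edgeR 4.0.16 (R 4.3.3) on 3 groups with total-count library sizes, with a threshold of FDR 0.05 over all genes. On simulated counts of these genes the fit was tested for recovery of known changes. Alternatives were TMM factors, DESeq2 1.42.0, exactTest, 2 other filters, a replicate block, 2-group fits, a length trend removed, members with few shared 75-nt words, and each library left out. Word sharing is how many percent of the 75-nt words in a gene occur, on either strand, in transcripts of other genes. Genes that overlap the member at its own place were included. Per the methods the reads were paired, with 75 bases each. A pair can also be placed by its mate, which word sharing leaves out. Named members are those called in any comparison, 4 that the study names (Hist2h4, Hist1h3f, Hist1h2ai, Hist2h2bb), and in each class the highest and lowest level per kb, the highest and lowest log2 fold change in each comparison, and the least shared; named pathway genes are Slbp, Npat and those called. Other genes and pairs in the text were chosen after their values were seen. Figures and tables used Python with pandas and matplotlib.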

Additional observations from a re-analysis of the deposited data

Results flagged for a closer look

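For 12 members the effects of the 2 siRNAs differed when siRNA 2 was tested against siRNA 1 (edgeR, FDR at most 0.05). The log2 difference was -0.319 in Hist1h2bp, -0.279 in Hist1h2bm, -0.21 in Hist1h2be and -0.165 in Hist1h2bb among H2B genes. It was -0.21 in Hist1h3i, -0.207 in Hist1h3f, -0.179 in Hist1h3e and -0.153 in Hist1h3c among H3 genes. It was -0.185 in the H4 gene Hist1h4i and -0.209 in the H2A gene Hist1h2ab. Hist1h2ba and Hist1h2aa differed in the other direction, by 0.43 and 0.414. No single library stood apart from the other 3 of its siRNA group by Dixon's test in 74 groups checked, although chance alone would mark about 1 in 20 of them.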

How the results depend on the processing

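Over 26 calls of named genes (members and histone mRNA genes), 393 of 468 recalculations stayed past the threshold in the same direction, 75 lost it and none turned. Among named results that had not passed, 1458 recalculations did not change, 25 passed and 41 changed sign.

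For siRNA 1 against control the count was 0 in each alternative run. Its median of 0.0233 was 0.00325 with TMM factors, -0.000432 with DESeq2, 0.042 with the length trend removed and 0.000183 in the 3 members sharing under 10% of words, and 0.00522 to 0.0443 with single libraries left out. For siRNA 2 against control the count of 8 was 1 in the 3 members under 10% and 2 in the 14 under 25%, where fewer members were tested, and 3 to 13 with single libraries left out. For siRNA 2 against siRNA 1 the count of 12 was 0 in the 3 members under 10% and 4 in the 14 under 25%. All other alternatives stayed within 1.5 times of these counts, and the medians for siRNA 2 stayed below 0, between -0.0572 and -0.136 against control and between -0.0842 and -0.156 against siRNA 1.

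No pairing by replicate number was seen: deviations from the group means of same-numbered libraries correlated at -0.065 to 0.070. Libraries of different number and group correlated at -0.084 to 0.085. These correlations over all genes tested cannot exclude a small effect shared by same-numbered libraries. With a replicate block the counts were 0, 7 and 13, with medians of 0.0352, -0.0928 and -0.123, in the order siRNA 1 against control, siRNA 2 against control and siRNA 2 against siRNA 1. Under this block Hist1h4a, Hist2h2bb and Tut4 were not called for siRNA 2 against control.

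Depth limits the small members. Hist1h2ba and Hist2h3c2 had 9.69 and 1.02 CPM in control, and SEs of 0.12 and 0.36 with siRNA 2. Counts of members that share words depend on how reads aligned to several places, or lying in overlapping genes, were treated. How far this moved them was not tested.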
